A study of Mus musculus with 9 samples.

Results

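Pre-cDCs sorted from the spleen were compared with pre-cDCs sorted from the BM. Libraries were chosen by the tissue in their labels, with no use of a measured value, and all 9 RNA-seq libraries of the series entered the comparison, 3 from spleen and 6 from BM. The comparison ran over the 14277 of 51912 genes that passed a filter on low counts. The spleen is one of the tissues where pre-cDCs, precursors made in the BM and carried there by blood, give rise to cDC1 and cDC2. cDC1 are known for cross-presenting antigen to CD8+ T cells, and cDC2 for activating CD4+ T cells. The question was which transcripts differ between the precursor at the site where it is made and the precursor at a site that it seeds.

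All libraries came from untreated mixed BM chimeras. Lethally irradiated BL/6 CD45.1/2 hosts had received equal parts of WT BL/6 CD45.1 BM and of DNGR-1 KO BM (Clec9aCre/Cre, CD45.2, with Cre in place of functional Clec9a in every cell), so cells of both genotypes were taken from shared hosts. DNGR-1 is the receptor for dead cell debris encoded by Clec9a. BM held 3 WT and 3 DNGR-1 KO libraries. Spleen held 1 WT library (replicate 2) and 2 DNGR-1 KO libraries (replicates 1 and 2). For WT samples the allotype differs between label fields (CD45.1 or CD45.2), so genotype was taken from the DNGR-1 field. By the study's general statement, mice were 6 to 12 weeks old when experiments began, and each library pooled cells of a pair of mice. The hosts' own CD45.1/2 cells lie outside both donor gates. BM was flushed from the bones, whereas spleen was digested with collagenase and deoxyribonuclease, so tissue and preparation cannot be told apart. The total number of mice that the study gives implies that BM and spleen libraries share hosts. Which libraries share a host is not given in the sources used here, so this sharing did not enter the test.

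Levels are given as CPM, the count of a gene relative to a library size scaled by the trimmed mean of M-values. BM values are the lowest, the median and the highest of the 6 libraries, and spleen values are in the order WT replicate 2, KO replicate 1 and KO replicate 2. Differences are spleen minus BM on the log2 scale with their standard error (SE), from a quasi-likelihood fit that holds genotype constant, and a gene was called at a Benjamini-Hochberg adjusted p under 0.05.

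Clec9a checked the genotype labels. It was counted 905, 1574 and 1766 times in the WT BM libraries, once in each KO BM library, 2459 times in WT spleen and 0 times in both KO spleen libraries. Library totals ran from 17103806 to 23722298 counts. At least 1 count was found for 14862 to 18122 genes in BM and for 11698 to 13169 genes in spleen, with no overlap (p = 0.0119, exact permutation test, two-sided, the smallest p that 84 splits allow). Adjusted over 19 library measures (Benjamini-Hochberg), a p of 0.0119 from this test became 0.0226. The splits took no account of genotype or of shared hosts. The 20 highest genes took 8.51 to 10.9% of counts in BM and 11.9 to 18.8% in spleen (p = 0.0119, exact permutation test). The 4 adult globin genes took 0.850, 4.66 and 1.59% of counts in spleen and at most 0.0287% in BM. The Y-linked gene Ddx3y was at 4.8 CPM in KO BM replicate 1, at 19.1 and 45.5 CPM in the KO spleen libraries and at 0 to 0.342 CPM in the other libraries.

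The labelled cell type was checked against genes that mark pre-cDCs. Flt3, the receptor whose ligand drives DC development, was at 284, 428 and 544 CPM in BM and at 595, 541 and 354 CPM in spleen (log2 difference 0.21 ± 0.25 SE, adjusted p = 0.62). Itgax, which encodes CD11c, was at 75.1, 218 and 338 CPM in BM and at 157, 223 and 220 CPM in spleen. Sirpa, Csf1r, Kit, Spi1, Ly6c2 and Cd24a had log2 differences of -0.03, -0.12, -0.37, -0.08, -0.31 and -0.36, none past the threshold. These markers were present in every library of both tissues, and their ranges overlapped. Other genes set for this check did not all hold level. Irf8 fell (log2 difference -1.35), and Id2 lay above BM in every spleen library without a call (log2 difference 1.62). Zbtb46 and Batf3 had log2 differences of -1.17 and 1.64, and neither they nor Siglech were called. Ptprc, which encodes CD45, rose from 152, 280 and 393 CPM in BM to 1320, 1340 and 1740 CPM in spleen (log2 difference 2.35 ± 0.23 SE, adjusted p = 0.000304).

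Between the tissues 2710 of 14277 genes (19.0%) passed the threshold. Of these, 1033 (7.24% of genes tested) were higher in spleen and 1677 (11.7%) were lower. Before any threshold, all 3 spleen libraries lay above all 6 BM libraries for 8.64% of genes tested and below them for 17.0%. The median log2 difference of all genes was -0.19. Zero or near zero counts were frequent: 1481 tested genes had at most 3 counts in every spleen library and 168 had at most 3 in every BM library. For such genes a lower bound on the fold difference is given, with 3 counts per library put in place of the low tissue. The gene lists described here are read against the shares of 7.24% higher and 11.7% lower.

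**Figure D1:**
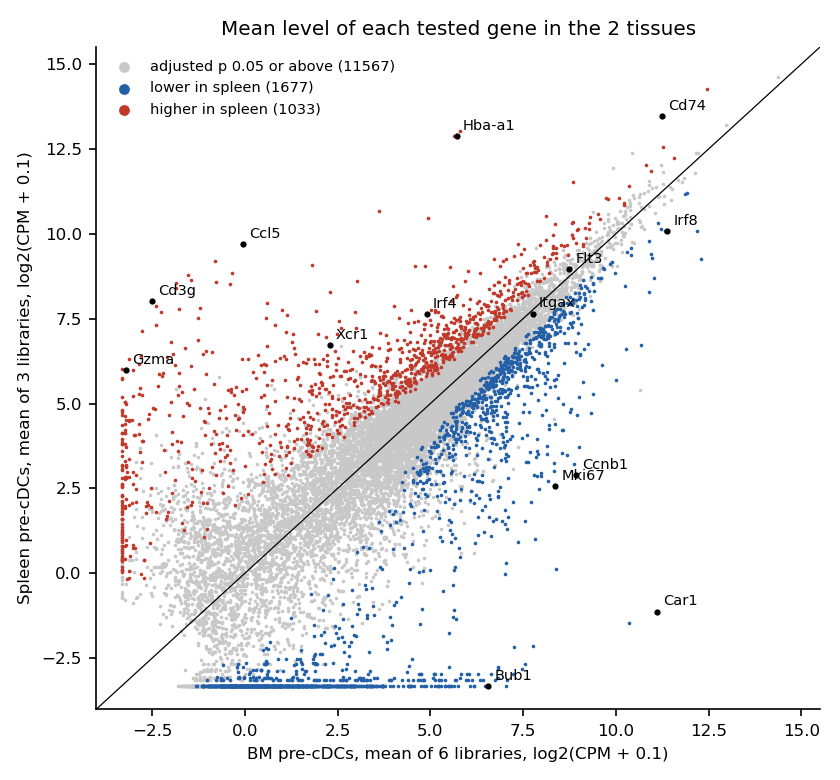
Mean level of each tested gene in BM pre-cDCs (x axis, 6 libraries) and spleen pre-cDCs (y axis, 3 libraries), both as log2(CPM + 0.1), with genes higher in spleen in red, lower in blue and those not past the threshold in grey. The 1677 lower genes include a row along the bottom edge that was not detected in spleen, and Flt3 and Itgax lie at the diagonal.

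The 15 protein-coding genes with the largest fall were taken among those with at least 50 CPM in BM and no overlap between tissues, and 8 of them are in none of the lists described here. Gfi1b, a transcriptional repressor needed for erythroid and megakaryocytic development, was at 12.5, 143 and 259 CPM in BM and at 0 in all 3 spleen libraries, at least 836-fold lower. The mitotic checkpoint kinase Bub1 was at least 593-fold lower, the spindle gene Ska3 at least 458-fold and the cohesin protector Sgo2a at least 424-fold. The neutrophil elastase gene Elane was at least 565-fold lower and S100a8 at least 462-fold. Mpo, the myeloperoxidase of granules, fell from 695, 1221 and 2109 CPM in BM to 0.0595, 0 and 0.721 CPM in spleen. Car1, an erythroid carbonic anhydrase, fell from 136, 2233 and 4822 CPM to 0, 0.0559 and 1.02 CPM. Prss50, Asns, Iqgap3, Mfsd2b, Tfr2, Cenpf and Sphk1 completed this group, with bounds from at least 338-fold to at least 953-fold lower. Each of the 15 was below 2 CPM in every spleen library.

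Of the 15 genes with the largest rise, chosen by the same rule with 50 CPM in spleen, 11 are in the lists of T cell or NK cell and ILC1 markers. Themis, a T cell signalling protein, was at 0 in all 6 BM libraries and at 31.9, 67.4 and 59.9 CPM in spleen, at least 346-fold higher. The cytotoxic genes Gzma and Prf1 were at least 409-fold and 518-fold higher. Cd3g rose from 0, 0 and 0.404 CPM to 134, 172 and 473 CPM. Il2rb rose from 0, 0.0245 and 1.26 CPM to 202, 327 and 799 CPM. Cd3e, Cd8b1, Lef1, Gimap4, Crtam, Sidt1, Xcl1, Klrc1, Skap1 and Samd3 completed the group. KO spleen replicate 2 was the highest spleen library for Cd3g, Il2rb, Cd8b1 and Gimap4.

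Transcripts of lymphoid cells that the sort was meant to remove were therefore counted next. The gate had taken live CD45+ cells that lacked, among others, the T cell marker CD3, the B cell marker B220, the NK cell marker NK1.1, the myeloid markers Ly6G and Siglec-F, Ly6D and the erythroid marker Ter119. Of 23 T cell markers tested, 22 rose in spleen and 0 fell. Their median log2 difference was 9.04, or 8.81 with the genes near 0 in BM set at their bound. Such genes, 2 of the 23, passed the filter through spleen and could not have fallen. The summed level of the list was 8.57 to 23.3 CPM in BM and 1985, 2890 and 8137 CPM in spleen. Cd3e was counted at most 10 times in any BM library and 955, 995 and 8622 times in spleen. The antigen receptor constant genes Trac, Trbc1 and Trbc2 and the co-receptor genes Cd8a and Cd8b1 rose with it. Cd8a, a cDC1 gene in the spleen as well, rose from 0, 0.503 and 1.53 CPM to 246, 350 and 511 CPM. Cd4 was at 0, 1.12 and 0.975 CPM in spleen and was not called (adjusted p = 0.657).

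Of 23 NK cell and ILC1 markers tested, 19 rose and 0 fell. Their median log2 difference was 9.62, or 6.5 with bounds. Of the 23, 10 had at most 3 counts in every BM library. Those passed the filter through spleen and could not have fallen. The summed level of the list was 640 to 1020 CPM in BM and 3795, 3708 and 6583 CPM in spleen. Klrd1, which encodes CD94, rose from 29.2, 40.0 and 87.6 CPM to 516, 454 and 579 CPM. Ncr1, which encodes NKp46, was at 0 in all BM libraries and in WT spleen, and at 15.7 and 10.7 CPM in KO spleen. It fell below the filter without either KO spleen library. Klrb1c, which encodes the NK1.1 antigen used in the gate, was at 0, 14.9 and 0 CPM in spleen. The summed levels of both lymphoid lists thus separated the tissues in every library, and of the genes higher in spleen 41 belong to these lists. In bulk libraries, more cells of a type and more RNA per cell cannot be told apart, and the part of these transcripts in the results on other genes was not tested.

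B cell genes did not show this pattern. Of 11 B cell markers tested, 1 rose and 1 fell, and the summed level of the list overlapped between tissues. Pax5 and Ebf1 were at 0 in every spleen library. Ms4a1 was at 0, 11.9 and 9.41 CPM in spleen and at least 46.3-fold higher than in BM, and it fell below the filter without either KO spleen library. Igll1, the surrogate light chain of early B cells, fell by 5.61 on the log2 scale (adjusted p = 0.0268), a call lost without WT BM replicate 2 or 3 or KO BM replicate 1 or 3. Of 10 tested markers of other ILC, 5 rose (3 without KO BM replicate 1 or KO spleen replicate 2) and 1 fell, and Il7r rose from 0.881, 1.66 and 5.65 CPM to 89.7, 150 and 342 CPM. Of 6 plasma cell markers 3 rose, among them Jchain, at 13.4, 0 and 7.46 CPM in spleen, and 1 rose without WT spleen replicate 2 or KO spleen replicate 2.

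Of 17 erythroid genes tested, 5 rose, among them the globins, and 8 fell. Hba-a1 rose from 11.7, 49.3 and 86.8 CPM in BM to 2496, 14964 and 4906 CPM in spleen (log2 difference 6.84 ± 0.71 SE, adjusted p = 0.00039). Its near-identical copy Hba-a2, the beta globins Hbb-bs and Hbb-bt, and Alas2, the erythroid enzyme of haem synthesis, rose alongside. In contrast the 8 that fell included Gata1 (at least 721-fold lower), Klf1, Epor (called in 2 of the 9 fits that leave out 1 library), Rhag and Tfrc. Klf1, the master regulator of the red cell programme, fell from 11.4, 155 and 337 CPM to 0, 0.280 and 0.0848 CPM. The summed level of the list overlapped between tissues, at 664 to 10142 CPM in BM and 8816, 50989 and 16289 CPM in spleen.

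**Figure D2:**
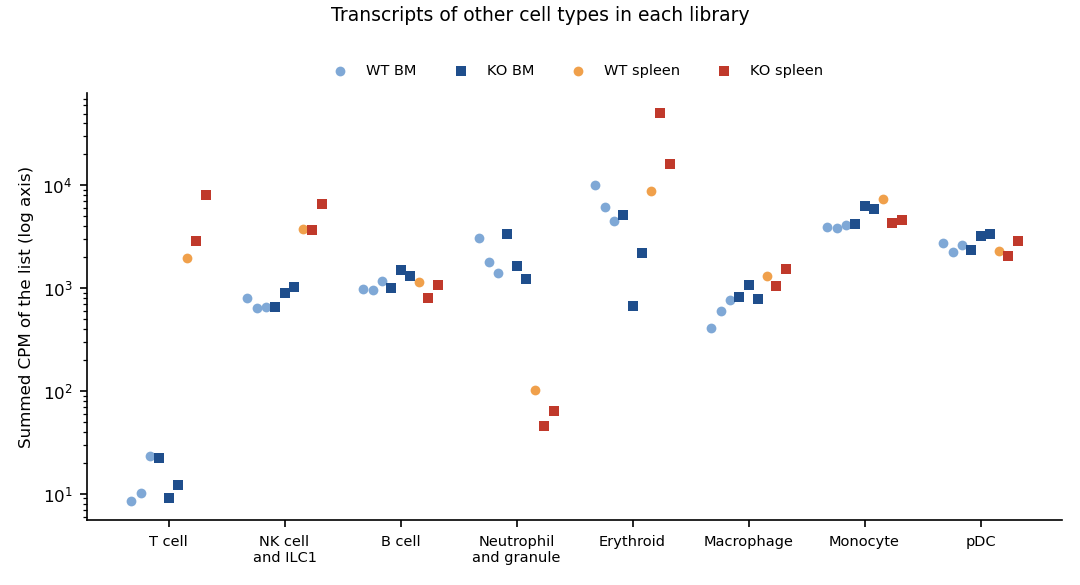
Summed CPM (log axis) of the marker lists of 8 cell types in each of the 9 libraries, coloured by tissue and genotype. The T cell list lies at 8.57 to 23.3 CPM in BM and at 1985 CPM or more in spleen, the neutrophil list lies lower in spleen, and the B cell and pDC lists overlap.

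Cell division genes formed the lists with the largest shares of lower genes, 97.1% for mitosis and 79.1% for DNA replication. Entry into mitosis is driven by CDK1 with B-type cyclins, and DNA synthesis by the MCM helicase and its partners. Many mitotic promoters carry CCAAT boxes together with a cell cycle homology region (CHR, TTTGAA), and many replication promoters carry E2F sites (TTTCCCGC or TTTGGCGC). The 100 bases upstream of the RefSeq start of 4 of these genes are shown (GRCm38.p6, minus strand, 5′ to 3′), with these motifs, on either strand, in capitals. They are shown because the genes they belong to fell together, and the part of the motifs in that fall was not tested. The windows are chr13:100786487-100786586 for Ccnb1, chr10:69352913-69353012 for Cdk1, chr4:118437344-118437443 for Cdc20 and chr1:128359706-128359805 for Mcm6.
Ccnb1: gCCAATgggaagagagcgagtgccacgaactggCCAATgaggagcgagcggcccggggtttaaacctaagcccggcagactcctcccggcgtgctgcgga
Cdk1: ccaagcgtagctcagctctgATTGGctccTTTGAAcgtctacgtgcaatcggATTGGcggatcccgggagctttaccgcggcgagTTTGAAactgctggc
Cdc20: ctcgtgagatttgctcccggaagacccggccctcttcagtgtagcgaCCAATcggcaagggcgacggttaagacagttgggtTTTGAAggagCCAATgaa
Mcm6: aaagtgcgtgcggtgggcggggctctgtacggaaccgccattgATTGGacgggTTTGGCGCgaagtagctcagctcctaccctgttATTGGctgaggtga

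In the Ccnb1 window 2 CCAAT boxes stand 99 and 67 bases before the start. The Cdk1 window holds 2 CHR and 2 inverted CCAAT boxes (ATTGG), the Cdc20 window 1 CHR and 2 CCAAT boxes, and the Mcm6 window 1 E2F site between 2 inverted CCAAT boxes. Over the 250 bases upstream, CCAAT was found on either strand in 23 of 29 G2/M promoters (79.3%) and 22 of 35 S phase promoters (62.9%), against 36.8% of the promoters of all genes tested. CHR was found in 10 of 29 G2/M promoters (34.5%) against 11.1% of all. E2F letters were found in 6 of 35 S phase promoters (17.1%), in 0 of 29 G2/M promoters and in 2.66% of all. Among all genes lower in spleen, the shares were 42.2% for CCAAT, 13.4% for CHR and 4.29% for E2F, and among genes higher in spleen 35.2%, 14.8% and 0.84%. The 3 motifs do not overlap in letters. A RefSeq promoter was matched for 10023 of 14275 gene symbols.

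Of 34 genes of G2/M and mitosis, 33 fell and 0 rose, with a median log2 difference of -5.44, and none overlapped between tissues. Ccnb1, the B-type cyclin of CDK1, fell from 450, 496 and 512 CPM in BM to 7.2, 9.23 and 5.64 CPM in spleen (log2 difference -6.06 ± 0.25 SE, adjusted p = 9.43e-06). Cdk1 fell from 279, 295 and 409 CPM to 0.178, 13.4 and 10.2 CPM (log2 difference -5.80 ± 0.96 SE, adjusted p = 0.00379). The anaphase activator Cdc20 was at 380, 409 and 440 CPM in BM and at 0.0595, 33.0 and 0.339 CPM in spleen (adjusted p = 0.0339). Plk1 and Mki67 had the same form, with KO spleen replicate 1 at 16.3 and 17.2 CPM and the other spleen libraries at 0 to 0.254 CPM. Thus the BM libraries differed from each other by less than 2-fold for Ccnb1, Cdk1 and Cdc20, and the spread of Cdk1 and Cdc20 lay in spleen. Birc5 and Knstrn fell by 5.75 and 4.37 on the log2 scale, with all 3 spleen libraries between 6.95 and 14.6 CPM. Ccnb2 fell by 4.38, and Top2a, at 14.7, 43.5 and 59.1 CPM in spleen, by 4.34. The cytokinesis genes Racgap1 and Kif23 fell the least, from 291, 544 and 734 CPM to 184, 119 and 182 CPM for Racgap1. Ttk, the checkpoint kinase, was the only member not called. The tubulins of the spindle were among the highest genes of BM, and Tuba1b fell from a mean of 5045 CPM to 606 CPM.

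Of 43 genes of DNA replication and S phase, 34 fell and 0 rose (median log2 difference -2.63). The median fall was smaller than that of the mitotic genes, and the median member was at 171 CPM in BM and 28.1 CPM in spleen. Mcm5, a subunit of the replicative helicase, fell from 460, 529 and 578 CPM to 73.4, 74.8 and 112 CPM (log2 difference -2.63 ± 0.20 SE, adjusted p = 6.92e-05). Mcm7 fell by 2.51 and Mcm6 by 2.84 on the log2 scale. Rrm1, the large subunit of ribonucleotide reductase, fell from 294, 566 and 690 CPM to 46.4, 53.5 and 50.2 CPM. Its small subunit Rrm2, whose level follows S phase, was at 308, 380 and 427 CPM in BM and at 0.238, 54.1 and 1.02 CPM in spleen (adjusted p = 0.042). As with Cdc20, KO spleen replicate 1 alone kept the transcript above 2 CPM. Pcna, the sliding clamp, fell by 1.3, Tk1 by 3.96, Lig1 by 3.65, and the maintenance methylation genes Uhrf1 and Dnmt1 by 3.40 and 2.17. Slbp, which binds histone mRNA, fell the least of those called, by 0.90.

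Histone mRNA without a poly(A) tail is retained in these ribosome-depleted total RNA libraries. Of 57 replication-dependent histone genes tested, 22 fell (14 without KO BM replicate 2 or 3) and 1 rose, with a median log2 difference of -3.19, or -2.54 with bounds. The genes took 0.126 to 0.230% of counts in BM and 0.0203 to 0.0350% in spleen (p = 0.0119, exact permutation test). Hist1h2ap fell from 712, 962 and 1581 CPM to 56.5, 76.7 and 22.2 CPM (adjusted p = 0.000506), and the linker histone Hist1h1b fell by 3.75 on the log2 scale. Hist2h2aa1 rose by 1.67, and it shares reads with the near-identical Hist2h2aa2, so its level is uncertain. Many members of this family are close copies of each other.

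Upstream of the cycle, the D cyclins were not called whereas their kinases fell. Ccnd1, Ccnd2 and Ccnd3 had log2 differences of -0.20, 0.48 and -0.35, none past the threshold. Cdk4 fell from 525, 646 and 882 CPM to 218, 249 and 183 CPM (log2 difference -1.58 ± 0.20 SE, adjusted p = 0.00121), Cdk6 fell by 2.52, and the E-type cyclin Ccne1 by 1.83. The antiproliferative genes Btg1 and Btg2 rose by 1.69 and 1.19. The CDK inhibitors Cdkn1a and Cdkn1b had log2 differences of -0.26 and 0.70 and were not called. Of 14 E2F and mitotic transcription factors 3 fell, namely E2f7 (at least 232-fold lower), Tfdp1 and Mybl2, and 5 and 6 fell without WT and KO spleen replicate 2. Of 42 chromatin regulators 7 fell (16.7%, against 11.7% of all genes tested) and 0 rose. The list median was -0.32, against -0.19 for all genes. Those lower included Hmgb2, which fell from 1646, 2135 and 2483 CPM to 377, 456 and 400 CPM. Hmgn2, Hmgb1, Suv39h1 and the polycomb methyltransferase gene Ezh2 fell too.

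Of 22 stem and progenitor genes tested, 10 fell, 3 rose and 9 did not pass the threshold (median log2 difference -2.64, or -2.45 with bounds). Cd34, a surface marker of progenitors, fell from 117, 156 and 255 CPM to 31.9, 19.1 and 12.6 CPM (log2 difference -2.99 ± 0.40 SE, adjusted p = 0.00147). Cd93 fell by 2.78 and the progenitor transcription factor Myb by 2.50, a call that 5 of the 9 fits leaving out 1 library lost. Hoxa9 and Gata2 were at 0 in all spleen libraries, at least 39.1-fold and 41.9-fold lower. The 3 that rose were Ly6a (Sca-1), Cd27 and Ctla2a, all of which T and NK cells also transcribe. Ctla2a was at 50.1, 68.7 and 255 CPM in spleen, in the same order of libraries as the T cell list, whose part in these rises was not tested. Among 18 growth factor receptors 2 rose and 4 fell (2 without WT or KO BM replicate 3). Il3ra fell by 2.27, Il2rg, the common cytokine receptor chain, rose by 2.53, and Csf2ra and Csf2rb had log2 differences of 0.03 and -0.71 without a call.

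Granule genes of the neutrophil lineage were close to absent from spleen. Of 20 tested, 13 fell and 1 rose, with a median log2 difference of -9.75, or -6.66 with bounds, and their summed level was 1219 to 3400 CPM in BM and 103, 45.4 and 64.4 CPM in spleen. Ctsg fell from 124, 168 and 289 CPM to 0, 0 and 0.170 CPM, and Prtn3 from 116, 141 and 273 CPM to 4.88, 0.336 and 0.127 CPM. S100a9, Ngp, Camp, Ltf and Lcn2, genes of later granules, were at least 400-fold, 361-fold, 216-fold, 170-fold and 73.1-fold lower. Ly6g was at 0 to 0.959 CPM in BM and 0 in spleen. Pglyrp1 rose by 3.25 on the log2 scale. Of 8 megakaryocyte genes 4 fell, among them Pf4 at 0 in every spleen library, and Clec1b rose by 4.53. Of 8 basophil, mast cell and eosinophil genes 3 fell, and Cpa3 and Mcpt8 were at 0 in spleen. Among tested members of the granule, megakaryocyte and basophil lists, 14, 5 and 6 were near 0 in 1 tissue and passed the filter through the other.

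Transcription factors of the cDC lineage differed gene by gene. Of 23 tested, 3 rose and 1 fell, shares of 13% and 4.35%, and the median log2 difference was -0.06. Irf4, which acts in cDC2, rose from 9.29, 28.1 and 52.8 CPM to 285, 95.7 and 214 CPM (log2 difference 2.74 ± 0.48 SE, adjusted p = 0.00483). Relb, an NF-kB subunit needed for cDC2, rose from 4.19, 7.51 and 13.2 CPM to 37.5, 47.6 and 51.0 CPM. Irf2 rose by 1.36. Irf8, which pre-cDCs need to give cDC1, fell from 2060, 2588 and 3432 CPM to 932, 1671 and 624 CPM (log2 difference -1.35 ± 0.33 SE, adjusted p = 0.0203). Spleen and BM did not overlap for any of these 4. Without WT spleen replicate 2 the differences of Irf8 and Irf2 were -1.32 and 1.01 and missed the threshold (adjusted p = 0.0699 and 0.0684), and within genotypes the call of Irf8 was made in neither (adjusted p = 0.107 in WT cells and 0.13 with KO libraries only). Batf3, the partner factor of cDC1, was at 4.18, 13.7 and 26.3 CPM in BM and at 24.2, 115 and 14.4 CPM in spleen and was not called (adjusted p = 0.134). Id2 lay above BM in all spleen libraries (log2 difference 1.62 ± 0.51 SE) and just missed the threshold (adjusted p = 0.0538). Zbtb46, a factor of committed cDCs, had a log2 difference of -1.17 (adjusted p = 0.105). Tcf4, Zeb2 and Nfil3 had log2 differences of -0.13, 0.19 and -0.12.

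Of 19 genes of mature cDC1 tested, 8 rose (42.1%), 11 did not pass the threshold and 0 fell, with a median log2 difference of 1.68. Xcr1, the chemokine receptor that defines cDC1, rose from 0.988, 5.0 and 9.59 CPM to 105, 174 and 38.4 CPM (log2 difference 4.44 ± 0.72 SE, adjusted p = 0.00349). Cadm1 rose by 5.56, Itgae (CD103) by 6.92, Tlr11 by 4.20 and Cd36 by 3.57, and Ppt1 and Btla rose by less. Cd8a and Itgae are T cell genes as well. KO spleen replicate 1 was the highest spleen library for Xcr1, Cadm1, Itgae, Tlr11 and Ppt1. Without it the median was 0.70, with 6 genes called. Over the list, the median difference from the BM mean was 1.43 in WT spleen, 3.19 in KO spleen replicate 1 and 0.62 in KO spleen replicate 2 on the log2(CPM + 1) scale.

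Genes of cDC2 split. Of 19 tested, 6 rose and 1 fell, with a median log2 difference of 0.94, or 0.19 without WT spleen replicate 2. Clec4a3 rose from 1.92, 2.94 and 6.42 CPM to 133, 44.7 and 35.4 CPM, Clec4a4 (DCIR2) from 0, 0 and 0.245 CPM to 0.654, 27.8 and 6.66 CPM, and Ltb from 0.883, 1.47 and 2.56 CPM to 71.2, 115 and 289 CPM. Dtx1, a NOTCH-induced gene, was at 0, 25.5 and 26.8 CPM in spleen, at least 114-fold higher, and it fell below the filter without either KO spleen library. Ltb, Cd7 and Tbx21 are also transcribed by T or NK cells. Mgl2 was at least 7.13-fold lower, and Itgam had a log2 difference of 0.67 (adjusted p = 0.304). Of 19 pDC genes 3 rose (5 without KO spleen replicate 1) and 3 fell. Lag3, Irf7 and Tlr7 rose, Dntt was at least 236-fold lower, Runx2 and Cox6a2 fell, and Siglech had a log2 difference of -0.92 (adjusted p = 0.144).

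**Figure D3:**
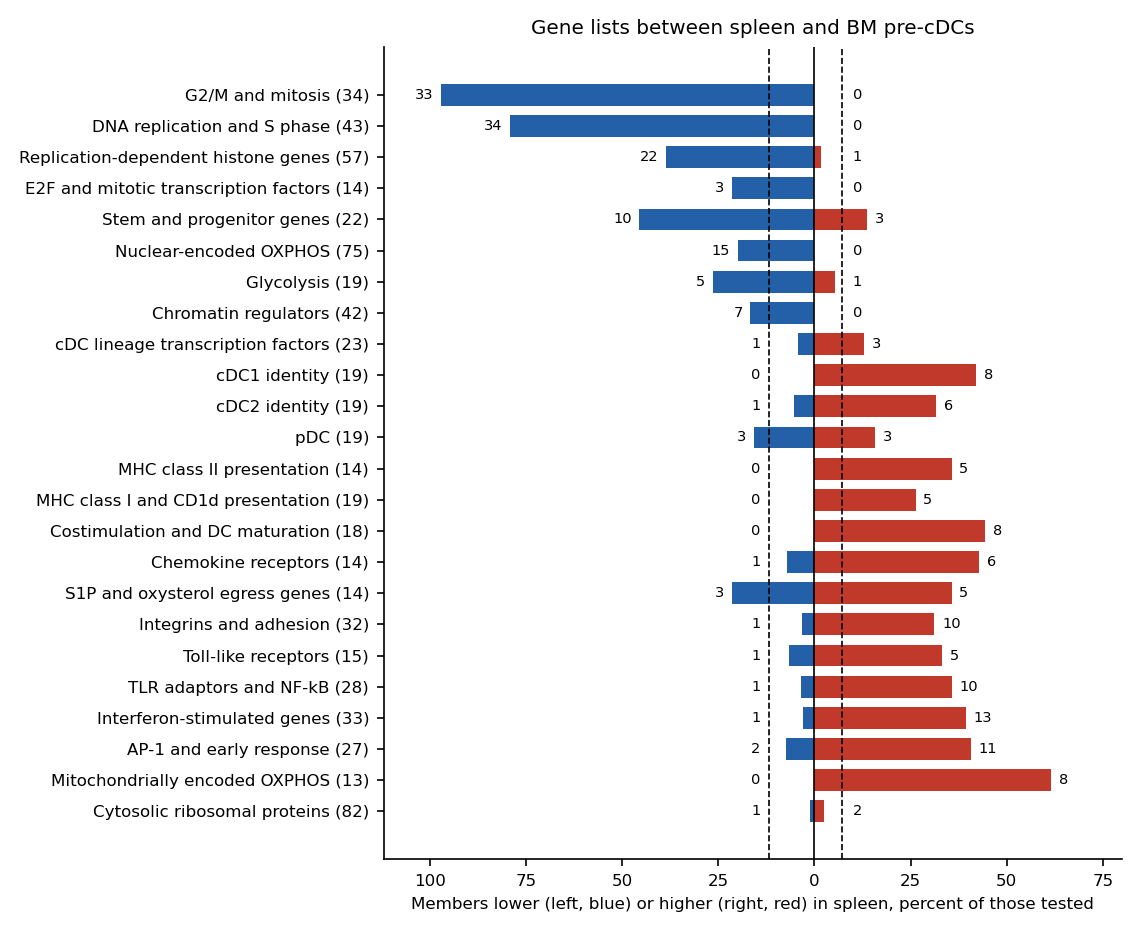
Share of the tested members of 24 gene lists that were lower (blue, left) or higher (red, right) in spleen than in BM, with the number of members called beside each bar and the number tested in parentheses. The dashed lines mark the shares over all genes tested, 11.7% lower and 7.24% higher, and the G2/M list stands apart with 33 of 34 lower.

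Of 14 MHC class II genes tested, 5 rose (35.7%), 9 did not pass the threshold and 0 fell, with a wide spread between spleen libraries. The median log2 difference was 1.33, or 0.74 without KO spleen replicate 1. Cd74, the invariant chain, rose from 745, 2753 and 4290 CPM to 8191, 20096 and 5474 CPM (log2 difference 2.13 ± 0.59 SE, adjusted p = 0.0342). H2-Eb1 rose by 2.50, H2-Oa by 2.32 and H2-Ob by 1.87, and the protease gene Ctss by 1.35. H2-Aa was above BM in every spleen library and missed the threshold (adjusted p = 0.0536), and H2-Ab1 was at 336, 1485 and 2354 CPM in BM and 3376, 10428 and 2183 CPM in spleen (adjusted p = 0.0852). Ciita, the class II transactivator, had a log2 difference of 1.29 (adjusted p = 0.226). KO spleen replicate 1 was the highest library for all of these except Ctss. Without WT spleen replicate 2, 0 of the 14 were called, and without KO spleen replicate 2, 8 were. The count was 1 without KO spleen replicate 1, WT BM replicate 2 or KO BM replicate 3, 2 without KO BM replicate 2 and 3 without KO BM replicate 1.

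Of 19 MHC class I genes tested, 5 rose, 14 did not pass the threshold and 0 fell (median log2 difference 0.56). B2m, the light chain of class I, rose evenly, from 1995, 2354 and 3489 CPM to 5949, 5705 and 6479 CPM (log2 difference 1.3 ± 0.20 SE, adjusted p = 0.00282). H2-K1 rose by 1.21, H2-D1 by 0.67, H2-M3 and the immunoproteasome subunit Psmb10 each by 0.95. H2-K1 and H2-D1 share long stretches of sequence, so the split of reads between them is uncertain. The count was 2 without KO BM replicate 1 and 3 without WT BM replicate 2 or 3.

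Genes of DC maturation and costimulation rose in part. Of 18 tested, 8 rose (44.4%) and 0 fell, with a median log2 difference of 2.21. The count was 4 without KO BM replicate 1 or 3, 5 without any 1 WT library, and 4 with KO libraries only. Ccr7, the receptor that guides DCs to T cell zones, rose from 1.61, 5.14 and 9.02 CPM to 83.0, 117 and 316 CPM (log2 difference 4.78 ± 0.59 SE, adjusted p = 0.000957). It is a receptor of naive T cells too, and its spleen libraries had the order of the T cell list. Cd83 rose from 0.599, 4.78 and 12.1 CPM to 67.0, 103 and 19.1 CPM, and Cd86, a ligand of CD28, from 4.73, 10.2 and 18 CPM to 14.5, 120 and 72.2 CPM. Traf1 rose by 4.45, Il15 by 2.32, Cd40 by 1.14, Birc3 by 1.13, and Cacnb3 by 6.08 with 39.2 CPM in WT spleen against 1.12 and 3.86 CPM in KO spleen. Cd80 was at 1.96, 15.2 and 0.594 CPM in spleen and was not called (adjusted p = 0.192). Of 15 DC cytokine genes 5 rose, and 3 did without any 1 of the BM libraries. Il18 rose from 0.415, 1.21 and 1.99 CPM to 20.2, 10.3 and 13.7 CPM, and Il16 by 0.95. Il12b was at 0 in BM and at 23.7, 0 and 20.2 CPM in spleen.

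Chemokine receptors, which place cells in tissue, rose in part, and only Cxcr4 fell. Cxcr4, the receptor for CXCL12 that retains cells in BM, fell from 11.1, 16.0 and 20.8 CPM to 5.77, 0.951 and 3.69 CPM (log2 difference -2.24 ± 0.58 SE, adjusted p = 0.0255). The call was lost without WT BM replicate 3 or any 1 KO BM library, with log2 differences of -2.14 to -2.29 (adjusted p = 0.0513 to 0.0576). With KO libraries only the difference was -2.62 (adjusted p = 0.101), and within WT cells it was -1.70. Of 14 chemokine receptors 6 rose (42.9%) and Cxcr4 alone fell (7.14%, under the 11.7% of all genes tested). Cxcr3 and Cxcr6 rose by 3.16 and 6.04, and Cxcr5 was at 0 in BM and at 3.15, 1.85 and 75.4 CPM in spleen, receptors that T or B cells also carry. Ccr2, with which precursors reach inflamed tissue, and Cx3cr1 had log2 differences of 0.40 and -0.24 with overlapping libraries. Among 12 chemokine ligands 5 rose, including Ccl5, Ccl3, Ccl4 and Cxcl16, and Pf4 fell. Ccl4 rose from 1.45, 2.88 and 4.31 CPM to 39.4, 87.3 and 13.8 CPM.

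**Figure D4:**
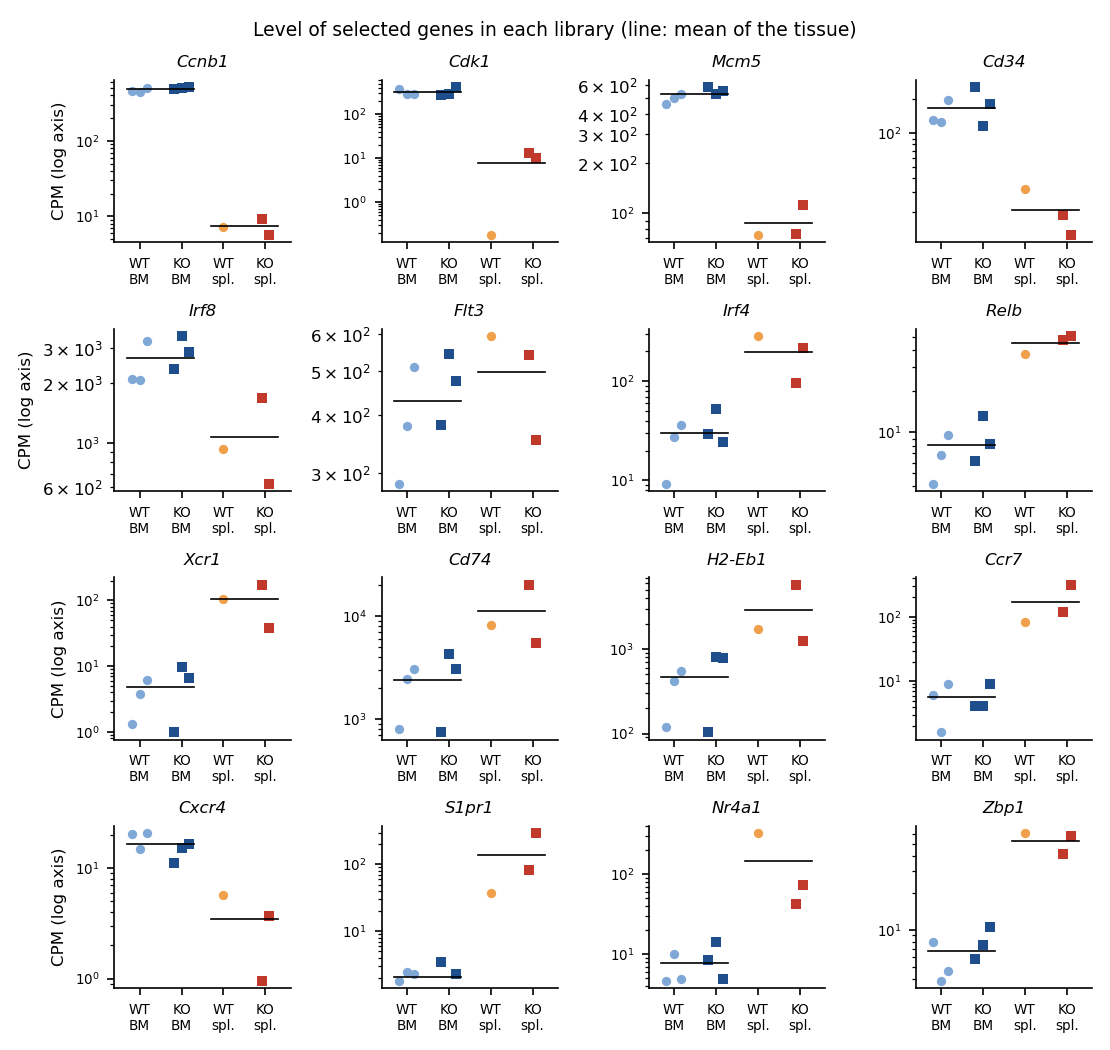
Level of 16 genes in each library (CPM, log axes that differ between panels), with circles for WT, squares for KO and a line at the mean of each tissue. Ccnb1, Mcm5, Cd34, Irf8 and Cxcr4 lie lower in all 3 spleen libraries, Irf4, Relb, Xcr1, Cd74, Ccr7, S1pr1 and Zbp1 lie higher, and Flt3 overlaps.

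Sphingosine 1-phosphate receptors guide exit from tissue into blood. Of 14 genes of this pathway and of oxysterol sensing, 5 rose and 3 fell. S1pr1 rose from 0, 2.27 and 3.50 CPM to 37.1, 83.1 and 293 CPM (log2 difference 5.83 ± 1.03 SE, adjusted p = 0.00495), and S1pr5 from 0, 0.473 and 1.65 CPM to 62.7, 10.2 and 18.4 CPM. S1pr1 ran in the order of the T cell list, whereas S1pr5 was highest in WT spleen. Klf2, the factor that induces S1pr1, rose by 2.53, and Cd69, which holds S1PR1 inside the cell, rose by 3.03. S1pr3 was at least 179-fold lower, Spns2 at least 27.3-fold lower and Sphk1, the kinase that makes the ligand, at least 953-fold lower. S1pr4 was at 157, 183 and 210 CPM in BM and at 173, 119 and 164 CPM in spleen (adjusted p = 0.343). Gpr183 (EBI2), the oxysterol receptor that positions cDC2, rose from 124, 142 and 196 CPM to 342, 256 and 327 CPM (log2 difference 1.04 ± 0.19 SE, adjusted p = 0.00606).

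Of 32 integrin and adhesion genes 10 rose (31.2%) and 1 fell (1 to 3 over the fits that leave out 1 library). Icam1 rose from 32.8, 49.1 and 78.5 CPM to 163, 164 and 195 CPM (log2 difference 1.72 ± 0.23 SE, adjusted p = 0.00157). Itga4 rose by 1.46, Itgb2 by 1.5, Itgal by 1.24 and Cd44 by 1.25, in each case without overlap. Itga2b, an integrin of megakaryocytes and early progenitors, was at least 57.2-fold lower.

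Genes of innate sensing rose in part. Of 15 Toll-like receptor genes 5 rose and 1 fell. Tlr2 rose from 17.0, 45.7 and 65.4 CPM to 225, 123 and 87.9 CPM, Tlr1 by 2.34, Tlr13 by 4.15 and Tlr7 by 4.74, the last with 47.7, 1.34 and 21.5 CPM in spleen. Tlr5 was at least 4.64-fold lower, and Tlr9 had a log2 difference of -1.59 (adjusted p = 0.44). Over the fits that leave out 1 library, from 1 (without WT spleen replicate 2) to 5 Toll-like receptor genes were called higher. Of 28 TLR adaptor and NF-kB genes 10 rose (35.7%) and 1 fell. Nfkbia, the inhibitor that NF-kB itself induces, rose from 105, 121 and 160 CPM to 436, 331 and 304 CPM (log2 difference 1.51 ± 0.19 SE, adjusted p = 0.00102). Nfkbiz rose by 2.62, Rel by 1.67, Nfkb2 by 1.51, Nfkbie by 1.25 and the adaptor gene Myd88 by 0.57, and Tnfaip2 fell by 4.07. From 5 (without WT BM replicate 2 or WT spleen replicate 2) to 12 genes of this list were called higher when 1 library was left out.

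Of 33 interferon-stimulated genes 13 rose (39.4%) and 1 fell, with a median log2 difference of 1.16. Zbp1, a nucleic acid sensor, rose from 3.84, 6.62 and 10.6 CPM to 60.8, 41.0 and 57.4 CPM (log2 difference 2.97 ± 0.38 SE, adjusted p = 0.00108). Xaf1 rose by 1.99, Ifit3 by 5.57 and Rsad2 by 2.89, the last with 106 CPM in KO spleen replicate 1 against 17.1 and 17.4 CPM in the other spleen libraries. Cmpk2 fell by 1.41. The receptor chain gene Ifnar2 fell by 0.72 (adjusted p = 0.0249).

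Early response genes rose in part. Of 27 AP-1 and early response genes 11 rose (40.7%) and 2 fell, and 7 rose without KO BM replicate 1. Junb rose from 70.2, 91.2 and 135 CPM to 379, 338 and 280 CPM (log2 difference 1.79 ± 0.22 SE, adjusted p = 0.00083). Nr4a1 rose from 4.61, 6.64 and 14.3 CPM to 329, 42.6 and 74.2 CPM, and Egr2, Socs3, Atf3, Zfp36 and Jund rose as well. The 2 that fell were the heat shock genes Dnajb1, by 1.26, and Hspa1a, which was at 0 in spleen and at least 14.6-fold lower. Neither was called without WT spleen replicate 2 or with KO libraries only, and Hspa1a was called in 1 of the 9 fits that leave out 1 library, that without KO BM replicate 3. Digestion took place in spleen alone, and its part in these values was not tested.

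Genes of macrophages and monocytes rose in part. Of 15 macrophage genes tested 7 rose and 0 fell, while the summed level of the list overlapped between tissues (407 to 1061 CPM against 1327, 1056 and 1549 CPM). Adgre1 (F4/80) rose from 1.75, 3.89 and 10.1 CPM to 124, 66.9 and 69.6 CPM, and the complement gene C1qb from 0.489, 1.22 and 2.96 CPM to 18.3, 63.7 and 130 CPM. Spic and Hmox1, genes of red pulp macrophages, were at 1.19, 25.6 and 47.0 CPM and at 2.56, 94.7 and 201 CPM in spleen. These 3 genes had the same order of spleen libraries. Of 16 monocyte genes 6 rose and 1 fell. Treml4, Ace, Fcgr4 and Cd300e, genes of Ly6C-low monocytes, were highest in WT spleen, with Cd300e at 182, 15.7 and 17.0 CPM, and F13a1 fell by 2.53. Leaving out 1 library gave from 1 (without WT spleen replicate 2) to 6 monocyte genes called higher.

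Receptors of innate recognition followed. Of 26 C-type lectin receptor genes 7 rose (12 without KO spleen replicate 2) and 4 fell. Clec4n (Dectin-2) was at least 149-fold higher, and Clec4a1 and Cd209d rose by 3.31 and 2.29, whereas Clec7a and Clec12a had log2 differences of 0.75 and -0.56 without a call. Of 27 Fc receptor and ITAM adaptor genes 5 rose and 2 fell, and Fcer1g, the common gamma chain, had a log2 difference of -0.11. Of 11 SLAM family genes 6 rose. Without WT spleen replicate 2, 1 Fc receptor gene and 3 SLAM family genes were called higher. Slamf7 rose from 34.9, 73.7 and 99 CPM to 355, 298 and 154 CPM and Slamf6 by 2.48. Sh2d1a, the SAP adaptor of T and NK cells, rose from 0, 0 and 0.602 CPM to 25.5, 31.3 and 122 CPM. Of 16 BCL2 family genes 4 rose and 3 fell (1 without WT spleen replicate 2). Mcl1, a survival gene, rose from 80.6, 95.1 and 136 CPM to 255, 191 and 332 CPM, Bcl2a1b and Bcl2a1d, close copies of each other, rose by 5.42 and 5.61, and the proapoptotic gene Bid fell by 1.31.

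Genes of mitochondrial respiration were divided by genome of origin. Of 13 messages encoded in mitochondrial DNA 8 rose (61.5%) and 0 fell. mt-Nd5, a complex I subunit, rose from 276, 334 and 492 CPM to 921, 760 and 745 CPM (log2 difference 1.21 ± 0.19 SE, adjusted p = 0.00265), and mt-Cytb and mt-Co1 each rose by 1.11. The share of counts in mitochondrially encoded genes was 0.747 to 1.64% in BM and 1.66 to 1.90% in spleen (p = 0.0119, exact permutation test). The nearest values were both from WT cells, 1.64% in BM replicate 1 and 1.66% in spleen. Of 75 nuclear genes of oxidative phosphorylation, 15 fell and 0 rose, with a median log2 difference of -0.48. The count was 4 without WT spleen replicate 2, 6 without KO BM replicate 3, 9 without KO BM replicate 1 and 1 with KO libraries only. Atp5a1, a subunit of ATP synthase, fell from 1089, 1230 and 1452 CPM to 731, 668 and 707 CPM (log2 difference -0.85 ± 0.17 SE, adjusted p = 0.00866), and Cyc1 fell by 1.61. Of 19 glycolysis genes 5 fell and 1 rose. Gapdh fell from 1743, 1894 and 2444 CPM to 597, 855 and 594 CPM, Tpi1 by 1.38 and Pgam1 by 1.13, and Aldoc rose by 1.62. From 3 to 5 glycolysis genes were called lower when 1 library was left out.

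Of 28 genes of cholesterol synthesis and efflux 7 rose and 0 fell, and 4 rose without WT spleen replicate 2 or KO BM replicate 1. The synthesis genes Msmo1, Idi1 and Sqle rose by 1.62, 1.11 and 0.96. The efflux genes Apoe and Abcg1 rose by 2.61 and 0.68, and Nr1h3, the oxysterol receptor LXR alpha, rose from 0.104, 0.448 and 1.20 CPM to 3.03, 11 and 8.14 CPM. Of 29 endolysosomal and cross-presentation genes 5 rose, among them Lipa and Cybb by 1.37 and 2.35. Without WT spleen replicate 2 only Lipa was called (Cybb log2 difference 1.15, adjusted p = 0.0554), 3 genes were called without WT BM replicate 2 or 3 or KO BM replicate 1, and 0 with KO libraries only. Few genes of the translation machinery were called. Of 82 cytosolic ribosomal protein genes 2 rose and 1 fell, shares of 2.44% and 1.22% that lie under those of all genes. Leaving out 1 library gave 0 to 3 of them higher and 0 to 1 lower. Among 35 translation initiation factors 1 rose and 3 fell (1 without KO BM replicate 1 or WT spleen replicate 2). Eif4a2 rose from 137, 172 and 180 CPM to 295, 405 and 427 CPM, whereas its paralogue Eif4a1 fell by 0.60. Of 965 lncRNA genes tested 66 rose (6.84%; 38 and 41 without KO BM replicates 1 and 2) and 109 fell (11.3%). Malat1, a nuclear lncRNA, rose from 269, 301 and 427 CPM to 695, 1337 and 968 CPM (log2 difference 1.63 ± 0.24 SE, adjusted p = 0.00215).

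The tissue difference was then taken within each genotype, from separate libraries. KO spleen against KO BM called 2239 genes (15.7%) and WT spleen, with 1 library, against WT BM called 3042 (21.3%), the lone library being assumed to vary like the other groups. Both contrasts had the same sign for 65.6% of genes tested, with Pearson's r = 0.478 and Spearman's rho = 0.401 across 14277 genes, which are not independent replicates. Among the 2239 genes called in KO cells, 85.8% had the same sign in WT cells (r = 0.755). A fit on the KO libraries alone, with its own spread, called 1336 genes. The median difference of the G2/M list was -5.01 in KO and -5.95 in WT cells, that of the S phase list -2.17 and -2.84, that of the cDC1 list 1.91 and 1.28, and that of the interferon list 1.46 and 1.47. For all genes it was -0.10 and -0.55.

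The tissue by genotype interaction passed the threshold for 1154 genes (8.08%), of which 923 were positive, meaning that spleen minus BM was higher in KO than in WT cells. Of the 1154 genes, 687 had at most 3 counts in the only WT spleen library. That library had at most 3 counts for 1165 tested genes that both KO spleen libraries detected above that level, against 411 and 442 genes for KO spleen replicates 1 and 2 by the same rule. Asxl1, a chromatin regulator, was at 0, 37.7 and 30.1 CPM in spleen, and Kdm1a, a histone demethylase, at 0, 23.3 and 30.2 CPM. The interaction rests on that single library, and genotype and library cannot be told apart in it.

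**Figure D5:**
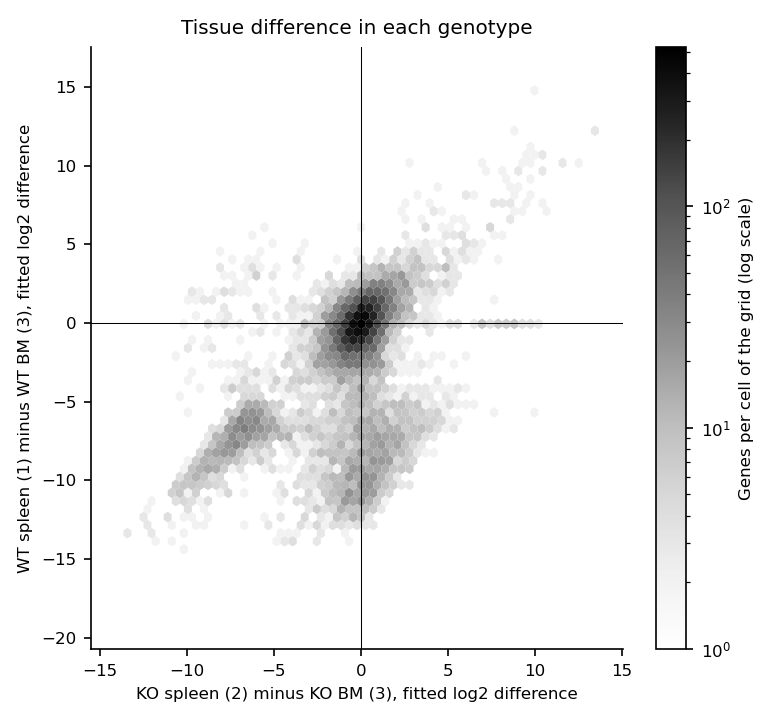
Fitted log2 difference between spleen and BM in KO cells (x axis) and in WT cells (y axis) for the 14277 genes tested, with the number of genes per cell of the grid in grey (log scale). The 2 differences have the same sign for 65.6% of genes, and a cloud below zero on the y axis and near zero on the x axis holds genes that were low in the WT spleen library alone.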

How the data were processed

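Bulk RNA-seq of ribosome-depleted total RNA from 9 pre-cDC samples was analysed. Per the submitters' processing notes, the authors used Trimmomatic 0.36, STAR 2.5.2 and RSEM 1.3.0 with the GRCm38 genome, and the notes also name DESeq2 1.18.1 and R 3.4.3. The deposited values are RSEM expected counts per gene, of which 25.6% of those above 0 are not whole. They were rounded. The study's methods state a test between genotypes, so the tissue test was set here. Libraries held 17103806 to 23722298 counts. Reads without molecular identifiers are not independent molecules, so bounds from 3 counts cover counting error only. RSEM shares reads among near-identical genes, and strand use in counting is not given in the sources used here.

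Symbols came from GENCODE M21 (51719 of 51912 identifiers). Genes were filtered (filterByExpr), normalised (TMM) and fitted in edgeR 4.0.16 (R 4.3.3) with genotype and tissue, by quasi-likelihood tests with Benjamini-Hochberg adjustment over 14277 genes at 0.05. A fit of 4 groups gave the differences within genotypes and the interaction. Library measures were compared by exact permutation tests over 84 splits. Named genes were the 15 lowest and 15 highest protein-coding genes past the threshold with at least 50 CPM and no overlap, plus members of the gene lists chosen by role or lowest adjusted p, some after their values were seen. Members and lists were chosen with earlier results of these data known, so no set test was run. Alternatives were DESeq2 1.42.0, limma-voom (limma 3.58.1), other size factors, filters and covariates, fewer libraries and each library left out. On simulated counts with 200 changed genes, the test recovered 7.46, 44.8 and 86.4% of genes changed by 1, 2 and 4 on the log2 scale, called 3 unchanged genes, and called 0 genes where none was changed. No libraries were near duplicates of each other. Some members of the lists are counted but not reported here by name.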

Additional observations from a re-analysis of the deposited data

Results flagged for a closer look

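Among the genes named in the report, the following differed in their tissue difference between WT and KO cells by the interaction test (edgeR quasi-likelihood, adjusted p under 0.05, KO minus WT on the log2 scale). The WT side rests on 1 spleen library.

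The mitotic genes Cdk1 and Ccna2 had interactions of 5.95 and 7.79, and Myb one of 3.32, each with the lowest spleen level in the WT library. Mybl2 and Cdk2 went the other way, at -6.27 and -1.79. The granule gene Prtn3 was at -4.18 and Cox6a2 at -7.14. Several myeloid genes had risen more in the WT library: Cd300e at -7.47, Clec4a1 at -2.99, Clec4a3 at -2.89, Cybb at -2.61 and Cd209d at -2.05. Hmox1 had risen more in KO cells, at 4.85. The chromatin genes Asxl1 and Kdm1a, both at 0 in WT spleen, had fitted interactions of 12.46 and 12.32, which depend on the prior count and are not fold bounds.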

How the results depend on the processing

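No gene called in the comparison was called in the opposite direction by any of the alternatives run. In the WT contrast 40 of the 2710 had the other sign without a call. Of 245 named genes past the threshold, 181 passed in all fits that leave out 1 library and test them (Dtx1, Ncr1 and Ms4a1 fell below the filter without either KO spleen library), and the others lost the call in at least 1: Abcg1, Ace, Aldoc, Atf3, Bid, Btla, Cacnb3, Cd300e, Cd40, Cd7, Cd74, Cd83, Cd86, Cdc20, Cox6a2, Ctss, Cxcl16, Cxcr4, Cybb, Dnajb1, Egr2, Eif4a1, Epor, Fcgr4, H2-D1, H2-Eb1, H2-M3, H2-Oa, H2-Ob, Hist2h2aa1, Hmox1, Hspa1a, Idi1, Ifnar2, Igll1, Il12b, Il15, Irf2, Irf8, Itgal, Itgb2, Jchain, Jund, Myb, Myd88, Nfkb2, Nfkbie, Plk1, Ppt1, Psmb10, Rrm2, Slamf7, Spic, Sqle, Tbx21, Tlr1, Tlr13, Tlr2, Tlr5, Tlr7, Tnfaip2, Treml4, Zfp36 and mt-Co1. DESeq2 called 4092 genes, 1657 of them higher in spleen, and 2662 were shared with the 2710. With KO libraries only, 1336 were called (499 higher, 837 lower). Leaving out each library gave 1835 to 3187 genes, 660 to 1141 of them higher and 1175 to 2076 lower, and the count of 660 higher was that without KO BM replicate 1. Where it could be measured, the replicate numbers did not pair the libraries (correlation of deviations between same-numbered libraries -0.079 to 0.092). The lone WT spleen library has no deviation from its group, and those of the KO spleen libraries mirror each other. Pairing between tissues was therefore hardly tested. With the replicate number as a block 1070 genes were called (386 higher, 684 lower), 1065 of them shared. Under it the count of members higher went from 13 to 4 for interferon-stimulated genes, 11 to 3 for AP-1, 10 to 4 for TLR adaptors and NF-kB, 10 to 5 for adhesion, 8 to 4 for costimulation and for mitochondrially encoded genes, 7 to 3 for macrophage and for cholesterol genes, 6 to 2 for cDC2 and for monocyte genes, 6 to 3 for SLAM genes, and 5 to 1 for the Toll-like receptor, Fc receptor, endolysosomal and both MHC lists. The count lower went from 15 to 2 for nuclear oxidative phosphorylation genes, 22 to 9 for histone genes, 10 to 4 for stem genes and 4 to 0 for C-type lectin receptors, and the calls of Cxcr4 and Irf8 were lost (adjusted p = 0.083 and 0.0871). The interaction called 2147 genes in DESeq2, 601 with the replicate block, and 816 to 2705 over the 8 libraries that could be left out, which excludes WT spleen replicate 2 (2705 without KO spleen replicate 1, 2457 without KO spleen replicate 2). In a window of 100 bases, 5.8% of promoters of lower genes held CHR, 29.7% CCAAT and 1.93% E2F. The shares in this window were 3.12, 23.6 and 1.19% over all genes tested and 4.48, 22.4 and 0.28% among higher genes. CCAAT was found in 69.0% of G2/M and 54.3% of S phase promoters, and CHR in 27.6% of G2/M promoters. E2F letters were found in 2 of 35 S phase promoters (5.71%).

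Some list medians changed sign by more than 1 SD of the spleen libraries. In the WT contrast these were the pDC (0.0832), other ILC (-0.499), ribosomal protein (-0.122), BCL2 family (-0.00428) and lncRNA (-2.66) lists. With KO libraries only they were the plasma cell (-0.00491), monocyte (-0.0421), endolysosomal (-0.0343) and Fc receptor (-0.106) lists. Leaving out each library moved these 4 medians from -0.00257 to 1.74, from -0.0408 to 0.731, from -0.0319 to 0.315 and from -0.105 to 0.506, the lowest being without WT spleen replicate 2, and that of lncRNA from -0.348 to 0.189, negative without KO BM replicate 2 (-0.0338), KO spleen replicate 1 (-0.341) and KO spleen replicate 2. The lncRNA median was -0.819 in limma-voom and -0.322 with the replicate block. Other medians changed sign within that spread or from a value smaller than it: over all alternatives that of the cDC transcription factor list ran from -0.127 to 0.121, that of KLF factors from -0.145 to 0.359, that of the S1P list from -0.299 to 0.0528 and that of B cell markers from -1.32 (limma-voom) to 0.357. The causes were not tested.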
